A study of Mus musculus with 47 samples.

Results

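The lung response to stainless steel welding fume was compared between 4 hr and 28 d after the last exposure, gene by gene, on the 16 lung arrays of the 47 arrays in the series. The effect of the fume at a time point is the mean log2 signal of the GMA-SS arrays minus that of the air arrays, and the quantity described throughout is the effect at 28 d minus the effect at 4 hr, called the difference. A gene whose difference was called and whose effect was smaller at 28 d is said to have shrunk, one whose difference was called and whose effect was at least as large at 28 d to have grown, and one called in the same direction at both times without a called difference to have persisted. All lung arrays were used, and none was chosen by its signal.

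Male C57BL/6J mice, 6 weeks of age when exposure began, breathed air or gas metal arc-stainless steel (GMA-SS) fume at 40 mg/m3 in 10 exposures of 3 hr each. Lungs were taken 4 hr or 28 d later. The 4 groups were 4 hr air, 4 hr GMA-SS, 28 d air and 28 d GMA-SS, with 4 arrays each, and each array held RNA of another mouse. The RNA came from homogenates of whole lung, so that fewer cells of a type and less RNA per cell cannot be told apart. One strain and one sex were studied. Each time point lay on a beadchip of its own with both exposures, so that each effect was measured within a beadchip, while a change of the air level between times and a change of beadchip cannot be told apart. Within a beadchip the air arrays held the first positions and the GMA-SS arrays the others, so that position and exposure cannot be told apart either.

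GMA-SS fume is an aerosol rich in iron, chromium, manganese and nickel. Macrophages take up such particles in the airspaces, and particles can remain in the lung after exposure ends. Inhaled metal and particles are known to switch on several programs in lung cells. Metallothioneins and antioxidant enzymes are induced in cells that take up metal or are oxidized, growth factors and keratins in injured epithelium, and interferon-stimulated genes downstream of type I interferon and the transcription factor IRF7. Recruited monocytes and macrophages bring lysosomal enzymes, scavenger receptors and chemokines. Lung epithelium also holds cytochrome P450 and other xenobiotic enzymes, whose mRNA is commonly lower during inflammation.

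Between 10239 and 10872 of 18138 entries stood above the array background on a lung array, and the 75th percentile of the signal was 6.69 to 8 times the background. With 1 entry per symbol, 11133 genes passed the filter on dim genes and were tested. Arrays of one group correlated on average between 0.987 and 0.995 with each other. Markers of alveolar type II cells had a mean level of 13.91 to 14.23 on all 16 arrays, on a normalized log2 scale whose lowest value was 4.93 and whose highest was 16.08. One array stood apart in its muscle markers. The 13 measured markers of skeletal muscle had a mean level of 11.08 on GMA-SS replicate 2 at 28 d, against 7.34 to 8.18 on the other 15 arrays. Where a call on a described gene was lost without that array, the value without it is given. GMA-SS replicate 4 at 28 d had the lowest mean correlation with its own group, 0.9872, and the highest with the other groups, 0.9861.

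The lung response was called at both times for 1159 genes, at 4 hr only for 1004 and at 28 d only for 657. At a Benjamini-Hochberg adjusted p under 0.05 in limma, 2163 genes (19.4%) were changed at 4 hr and 1816 (16.3%) at 28 d. Of these, 1159 were called at both times, and 7 of them in opposite directions. The difference between the effects was called for 64 genes, 0.575% of those tested, of which 30 were higher at 28 d (0.269%) and 34 lower (0.305%). With arrays scaled to their 75th percentile in place of quantile normalization the split was 29 higher and 20 lower. At an unadjusted p under 0.05 the difference was found for 815 genes. Across all genes the effects at 28 d and at 4 hr had a Pearson r of 0.814. Genes are not independent replicates, and this r describes the pattern only. The 28 d count was 1133, 1759, 1078 and 2305 without GMA-SS replicate 1, 2, 3 and 4 of that time. The 64 calls were 32 to 77 with 1 array left out. They were fewest without air replicate 2 or GMA-SS replicate 1 of 4 hr and most without GMA-SS replicate 2 of 4 hr.

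A gene called at one time and not at the other was seldom shown to differ. Of 1004 genes called at 4 hr only, 29 had a called difference, and of 657 called at 28 d only, 8 had one. The 95% interval of a difference reached a median of 0.30 to either side on the log2 scale, and the called differences were 0.30 to 2.61 in size, with a median of 0.83. Smaller shifts were not resolved with 4 arrays per group. Among the genes called, the effect shrank for 45 (0.404% of genes tested), grew for 19 (0.171%) and, without a called difference, persisted for 1131 (10.2%). For 706 genes (6.34%) the 95% interval of the difference lay wholly inside a change of 1.5-fold, and these are said to be held. In 50 of the 64 genes the GMA-SS means moved more between the times than the air means, against 53.8% of all genes, and in 14 the air means moved more.

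**Figure D1:**
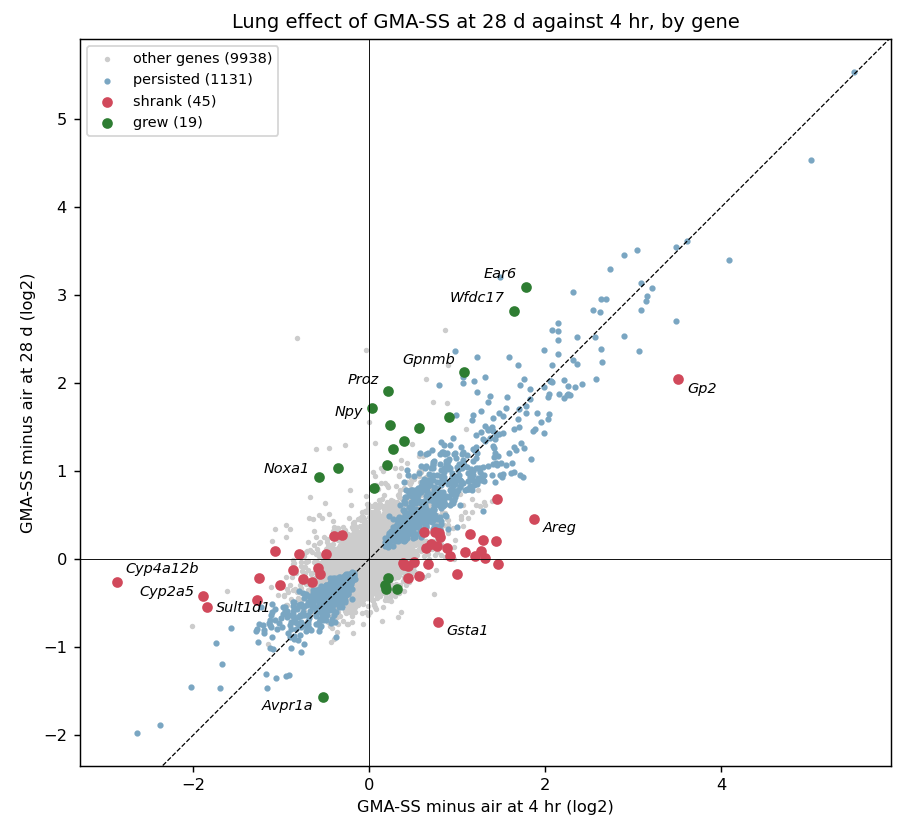
Each point is 1 of 11133 genes, with the GMA-SS minus air effect at 4 hr on the x axis and at 28 d on the y axis (both log2); the dashed line marks equal effects. The 1131 persisted genes lie along the line, the 45 genes whose effect shrank lie toward the x axis, and the 19 genes whose effect grew lie toward the y axis, with *Cyp4a12b* farthest from it among called genes.

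All 41 measured interferon-stimulated genes of a list of 49 were higher at 4 hr, where 9.56% of all genes were, and 38 of them were higher at 28 d, where 7.66% of all genes were. Their median effect was 1.55 at 4 hr and 1.20 at 28 d on the log2 scale, beside -0.04 and -0.04 over all genes. The median difference was -0.31, beside -0.01 over all genes, and the difference lay below 0 for 39 of the 41. No member had a called difference, and none had an unadjusted p under 0.05. Only 2 members were held within 1.5-fold, so for most of the list a smaller response at 28 d cannot be told from an unchanged one.

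*Isg15*, a ubiquitin-like protein that interferon induces, shows the spread. At 4 hr its level was 9.29, 9.38, 9.21 and 9.10 on the air arrays and 12.79, 13.26, 12.61 and 12.22 on the GMA-SS arrays. By 28 d the level was 9.70, 9.23, 9.32 and 9.34 in air and 13.14, 11.96, 12.65 and 10.63 in GMA-SS. The groups did not overlap at either time, as in 12.0% of all genes at 4 hr and 6.93% at 28 d in this direction, but GMA-SS replicate 4 at 28 d lay well under the other GMA-SS arrays. The effect was 3.48 at 4 hr and 2.70 at 28 d, and the difference of -0.78 had a 95% interval of -1.85 to 0.29 (adjusted p = 0.889). The same array stood low across the list, whose mean level was 10.27 there and 11.12, 11.40 and 11.67 on the other GMA-SS arrays of 28 d. Without it the median effect of the list at 28 d was 1.44, the median difference was -0.06 and all 41 members were called at 28 d. *Ifi47*, an interferon-inducible GTPase, had the lowest unadjusted p of the list, with effects of 1.21 and 0.61 and a difference of -0.60 (-1.22 to 0.03, adjusted p = 0.719).

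The interferon response core, GAAA followed after any 2 bases by a second GAAA, was searched on both strands. It was found in the window of 250 bases before to 50 bases after the start of 12 of the 31 interferon-stimulated genes with a RefSeq promoter (38.7%). Among all 8588 tested genes with such a window the share was 3.12%. Of the 431 genes that persisted at a higher level and had a window, 11.6% held it, against 1.55% of the 387 that persisted at a lower level. The 250 bases before the start of *Isg15* are shown because the response of this gene was among the largest that persisted, and capitals mark the core, which matches 3 times in overlapping copies (RefSeq, GRCm38.p6, chr4:156200819-156201068, minus strand).
Isg15: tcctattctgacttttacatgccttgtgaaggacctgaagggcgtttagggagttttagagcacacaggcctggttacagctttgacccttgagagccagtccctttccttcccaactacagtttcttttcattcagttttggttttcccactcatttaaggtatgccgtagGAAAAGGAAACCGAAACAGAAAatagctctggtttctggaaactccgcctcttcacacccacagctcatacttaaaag

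Held genes pair a sizeable effect with a tight interval. *Ctsk*, which encodes the collagen-degrading cathepsin K, read 10.98, 11.19, 11.28 and 11.09 in air and 13.22, 13.05, 13.22 and 13.16 in GMA-SS at 4 hr. The 28 d values were 11.41, 11.27, 11.21 and 11.02 in air and 13.06, 12.95, 13.24 and 13.03 in GMA-SS. The groups were far apart both times, with effects of 2.03 and 1.84 and a difference of -0.19 (-0.44 to 0.06). *Cd68*, the macrophage lysosomal glycoprotein, had effects of 1.35 and 1.48, and *Slpi*, a secreted inhibitor of leukocyte proteases, 1.03 and 0.90. *Malt1*, a paracaspase of NF-kB signaling, had effects of 1.0 and 1.05, and *Csf2rb2*, a beta subunit of the mouse IL-3 receptor, 1.02 and 0.96. *Wfdc21*, *Zmynd15*, *Lhfpl2*, *Slc16a6* and *Sp5* completed the 10 highest held genes, with effects of 1.05 to 1.52 at 4 hr and 1.02 to 1.43 at 28 d.

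The 10 lowest held genes had effects of -1.26 to -0.79 at 4 hr and -1.30 to -0.66 at 28 d. *Rab44*, a large Rab GTPase, had effects of -1.17 and -1.30, and *Dgkg*, a diacylglycerol kinase, -1.26 and -0.94. *Igfbp6*, which binds IGF-II, had -0.89 and -0.79, and *Ppp1r1b*, a protein phosphatase inhibitor, -0.90 and -0.88. The others were *Cdh26*, *Kcne2*, *Lpar4*, *Mturn*, *Rasgrf2* and *Tspan18*. Of the 706 held genes, 252 were higher and 454 lower.

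Of 29 measured lysosome and cathepsin genes, 16 were higher and 2 lower at 4 hr, beside 9.56% and 9.87% of all genes. At 28 d 15 were higher and 1 lower, beside 7.66% and 8.65% of all genes. None had a called difference and 13 were held. The 8 measured markers of monocytes and recruited macrophages had median effects of 1.09 and 0.98, with 7 higher at 4 hr and all 8 at 28 d against the same shares. For the 15 measured T cell markers the medians were 0.80 and 0.95, with 11 higher at each time. *Ctla4*, a checkpoint receptor of activated and regulatory T cells, had effects of 2.31 and 3.03. It was not above background on any air array of 28 d, where the fold was at least 7.83. Of 13 measured CC chemokine genes 8 were higher at 4 hr and 9 at 28 d, and none had a called difference.

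The 29 genes that were higher at 4 hr and shrank included secreted and epithelial genes. *Gp2* encodes a membrane glycoprotein that binds bacteria on specialized epithelial cells. Its level at 4 hr was 7.76, 8.28, 8.49 and 7.83 in air and 11.51, 11.43, 11.72 and 11.74 in GMA-SS. On the 28 d arrays, air read 7.59, 7.19, 7.69 and 7.65 and GMA-SS 9.52, 9.52, 10.06 and 9.17. The groups did not overlap at either time, and the GMA-SS arrays of 28 d all lay below those of 4 hr. The fold fell from 11.4 to 4.11, a difference of -1.48 on the log2 scale (-2.01 to -0.94, adjusted p = 0.0118), so that the response shrank without ending.

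*Areg* encodes amphiregulin, a ligand of the epidermal growth factor receptor made by injured epithelium. At 4 hr it read 10.42, 10.54, 10.30 and 9.84 in air and 12.14, 12.00, 12.12 and 12.31 in GMA-SS. Air read 11.14, 10.73, 10.58 and 10.45 and GMA-SS 11.59, 11.01, 11.17 and 10.98 at 28 d. The groups were apart at 4 hr and overlapped at 28 d, with folds of 3.65 and 1.38 and a difference of -1.41 (-1.89 to -0.92, adjusted p = 0.00742). Other epithelial genes were among the 29. *Krt8*, a keratin of simple epithelia, had effects of 0.44 and -0.08, *Lamb3*, a laminin chain of epithelial basement membranes, 0.39 and -0.07, and *S100a14*, an epithelial calcium-binding protein, 0.92 and 0.03. *Sfn*, the epithelial 14-3-3 sigma, had 1.44 and 0.20, but its signal was above background on only 1 air array of 4 hr and 1 GMA-SS array of 28 d.

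*Mt1*, a metallothionein that binds zinc and copper, read 14.39, 14.47, 14.40 and 14.04 in air and 15.36, 15.40, 15.65 and 15.68 in GMA-SS at 4 hr. At 28 d it read 13.73, 13.69, 13.71 and 13.60 in air and 13.49, 13.52, 13.80 and 14.01 in GMA-SS. The groups were apart at 4 hr and overlapped at 28 d. The effect went from 1.20 to 0.03, a difference of -1.17 (-1.51 to -0.83, adjusted p = 0.00128). *Mt2*, the second metallothionein, had effects of 1.43 and 0.20, and its difference of -1.23 did not pass the test (adjusted p = 0.0948). Of 12 measured metallothionein and zinc transport genes these were the largest effects at 4 hr, and only *Mt1* had a called difference. *Slc39a11*, of a zinc transporter family but outside this list, had effects of 0.75 and 0.31. Its difference of -0.43 was called (adjusted p = 0.0261), but not without GMA-SS replicate 2 at 28 d (-0.41, adjusted p = 0.0518).

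*Trf*, the iron carrier transferrin, read 13.27, 13.39, 13.31 and 13.59 in air and 14.56, 14.32, 14.62 and 14.66 in GMA-SS at 4 hr. By 28 d the level was 13.38, 13.30, 13.35 and 13.30 in air and 13.55, 13.59, 13.64 and 13.70 in GMA-SS. It stayed higher at 28 d, with folds of 2.22 and 1.22 and a difference of -0.87 (-1.09 to -0.64, adjusted p = 0.000518). It was the only one of 17 measured iron handling genes with a called difference, while *Lcn2*, which binds bacterial iron carriers, had effects of 2.69 and 2.95. *Srxn1*, which restores oxidized peroxiredoxins and is a target of the transcription factor NRF2, had effects of 0.70 and 0.17 (adjusted p of the difference = 0.0317). *Gsta1*, a glutathione transferase, was the only gene of the 29 called in the opposite direction at 28 d. Its effects were 0.78 and -0.71 (adjusted p of the difference = 0.0299). At 28 d its signal was above background on 3 air arrays and only 1 GMA-SS array, and the groups overlapped. Its difference was not called in the normalized values of the authors. Neither the *Srxn1* call nor the *Gsta1* call was kept without GMA-SS replicate 2 at 28 d. The differences there were -0.49 for *Srxn1* (adjusted p = 0.0603) and -1.43 for *Gsta1* (0.0583). *Srxn1* and *Gsta1* were the only genes with a called difference among 24 measured NRF2 targets. Of the 24, 8 were higher and 5 lower at 4 hr, beside 9.56% and 9.87% of all genes. At 28 d 2 were higher and 7 lower, beside 7.66% and 8.65% of all genes. The heme oxygenase gene *Hmox1* was held, at 1.02 and 0.91, and was named after its values were seen.

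The metal response element, TGCGCNC or TGCACNC on either strand, was found in 13 of 21 windows of the genes that were higher at 4 hr and shrank (61.9%). Of the genes that were lower at 4 hr and shrank, 2 of 11 windows held it (18.2%). It was found in 34.9% of all windows and in 1 of 19 windows of the genes that grew (5.26%). TATAAA was found in 28.1% of the windows of genes that shrank and in 26.3% of those that grew, against 8.17% of all windows. For the antioxidant response core TGACNNNGC the shares were 15.6%, 31.6% and 14.8%, and for the E-box CACGTG 0.0%, 10.5% and 9.76%. The D-box TTATGTAA was in no window of genes that shrank or grew and in 0.629% of all windows. No test was made of these shares. The 250 bases before the starts of *Mt1* and *Areg* are shown, with the metal response element of *Mt1* and TATAAA of *Areg* in capitals (RefSeq, GRCm38.p6; chr8:94178839-94179088 and chr5:91139349-91139598, both plus strand). The *Mt1* window holds 3 matches, of which the other 2 lie past the start and are not shown.
Mt1: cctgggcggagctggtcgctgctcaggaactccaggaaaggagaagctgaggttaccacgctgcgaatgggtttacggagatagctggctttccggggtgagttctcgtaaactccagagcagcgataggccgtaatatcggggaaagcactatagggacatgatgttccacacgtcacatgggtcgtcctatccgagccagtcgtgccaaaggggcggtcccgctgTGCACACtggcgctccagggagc
Areg: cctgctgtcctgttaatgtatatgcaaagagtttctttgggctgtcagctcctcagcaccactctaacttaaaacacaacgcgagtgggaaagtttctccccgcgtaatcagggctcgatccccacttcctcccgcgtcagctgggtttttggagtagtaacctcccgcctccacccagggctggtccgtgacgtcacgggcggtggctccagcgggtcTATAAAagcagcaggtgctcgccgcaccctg

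*Cxcl15* encodes lungkine, a chemokine of the airway epithelium that attracts neutrophils. At 4 hr it read 14.77, 14.76, 14.82 and 14.88 in air and 15.62, 15.60, 15.61 and 15.47 in GMA-SS. The 28 d values were 15.64, 15.83, 15.62 and 15.72 in air and 15.90, 15.85, 15.85 and 15.80 in GMA-SS. The difference was -0.62 (-0.78 to -0.46, adjusted p = 0.00047). Here the air mean moved by 0.90 between the times and the GMA-SS mean by 0.27. The 28 d values also lay close to the highest value on the scale, 16.08, and the part of that ceiling was not tested. The call was lost with 75th percentile scaling (adjusted p = 0.0617). *Il18r1*, a chain of the interleukin 18 receptor, and *Hdc*, which makes histamine, had the same form, with air means that moved by 1.15 and 0.84. Their differences were -0.52 and -0.43, and that of *Hdc* was not called without GMA-SS replicate 2 at 28 d (-0.38, adjusted p = 0.062).

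Several genes that rose at 4 hr stood at background in air. *Reg1*, a secreted lectin, read 5.41, 5.23, 5.25 and 5.52 in air and 6.54, 6.55, 6.78 and 6.61 in GMA-SS at 4 hr, at least 2.24-fold higher, and at 28 d no array read it above background. *Cblif*, the gastric intrinsic factor gene, was at least 2.13-fold higher at 4 hr, *Fbxo15* at least 1.98-fold, *Ppp1r3b*, a glycogen-targeting subunit of protein phosphatase 1, at least 2.44-fold, and the dopamine receptor gene *Drd2* at least 1.48-fold. At 28 d none of these 5 genes passed the test (adjusted p of 0.313 to 0.978). All 5 passed the filter on dim genes only through the 4 hr GMA-SS group, so that their calls are no independent support. Without GMA-SS replicate 2 at 28 d the difference was not called for *Ppp1r3b* (-1.33, adjusted p = 0.0561) or *Drd2* (-0.71, adjusted p = 0.106). *Ankrd37*, which hypoxia induces, had effects of 1.29 and 0.22, and *Itga7*, a laminin-binding integrin, 1.45 and 0.68, with no called difference without that array (-0.79, adjusted p = 0.0553). *Gapdh*, a glycolytic enzyme often used as a reference, was higher at both times, by 0.62 and 0.31, with a difference of -0.30 (adjusted p = 0.0467).

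**Figure D2:**
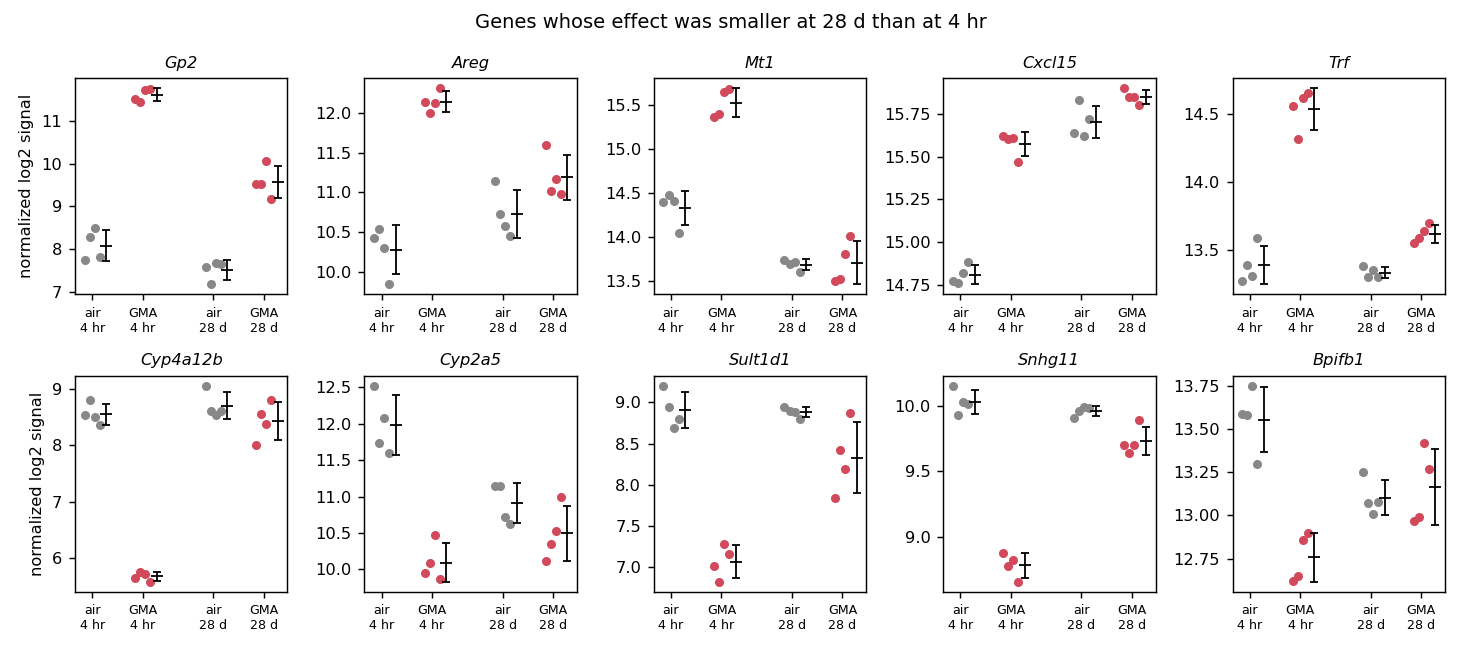
Each point is 1 array, grey for air and red for GMA-SS, with the normalized log2 signal on the y axis and the 4 groups on the x axis; the bar beside each group is its mean ± SD (n = 4). The upper row holds genes that were higher at 4 hr and the lower row genes that were lower, and at 28 d the GMA-SS arrays stand closer to air in all 10 genes than at 4 hr.

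Of the 16 genes that were lower at 4 hr and shrank, those with the largest differences encode cytochrome P450 enzymes or a sulfotransferase. *Cyp4a12b*, a fatty acid hydroxylase of the cytochrome P450 family, had the largest called difference. At 4 hr it read 8.53, 8.80, 8.50 and 8.36 in air and 5.65, 5.76, 5.72 and 5.58 in GMA-SS. On the 28 d arrays, air read 9.05, 8.61, 8.53 and 8.60 and GMA-SS 8.0, 8.56, 8.37 and 8.80. No GMA-SS array of 4 hr was above background, so that it was at least 7.3-fold lower there, and at 28 d the groups overlapped. The difference was 2.61 (2.16 to 3.05, adjusted p = 8.51e-06), and the call was kept under all 11 alternatives with an adjusted p and without each array in turn. Its neighbor on chromosome 4, *Cyp4a12a*, was at least 2.04-fold lower at 4 hr and had an effect of 0.09 at 28 d. The 2 genes are close relatives, and binding of one transcript to the probe of the other was not tested.

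*Cyp2a5*, a P450 that oxidizes nicotine and coumarin in the mouse, read 12.52, 11.73, 12.08 and 11.60 in air and 9.95, 10.09, 10.47 and 9.87 in GMA-SS at 4 hr. Air read 11.15, 11.15, 10.72 and 10.63 and GMA-SS 10.11, 10.35, 10.53 and 10.99 at 28 d. The groups were apart at 4 hr and overlapped at 28 d, and both the air mean, by -1.07, and the GMA-SS mean, by 0.40, moved between the times. The difference was 1.47 (0.86 to 2.08, adjusted p = 0.0261), and it was called in 10 of 16 fits that left out an array. *Sult1d1*, a sulfotransferase of catecholamines, read 9.20, 8.95, 8.69 and 8.80 in air and 7.01, 6.82, 7.28 and 7.16 in GMA-SS at 4 hr. At 28 d it read 8.95, 8.89, 8.88 and 8.80 in air and 7.84, 8.42, 8.19 and 8.87 in GMA-SS. Its signal was above background on only 2 GMA-SS arrays of 28 d. The groups overlapped at 28 d, where it was still called lower, with effects of -1.84 and -0.55 and a difference of 1.29 (0.79 to 1.79, adjusted p = 0.0189), which was not called in the normalized values of the authors (adjusted p = 0.0925).

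*Cyp2a5* and *Sult1d1* were the only members with a called difference among 24 measured cytochrome P450 and xenobiotic genes, a list that does not hold the *Cyp4a12* genes. Of the 24, 14 were lower at 4 hr (9.87% of all genes) and 10 at 28 d (8.65%), 7 were held, and the medians were -0.42 and -0.33. *Aldh3a1*, which oxidizes aldehydes, had effects of -0.92 and -0.37 (adjusted p of the difference = 0.407). *Cyp1b1*, a P450 that the aryl hydrocarbon receptor induces, had 0.04 and 0.45 and was the only member higher at 28 d.

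Of 16 measured club and secretory cell markers, 3 were higher and 5 lower at 4 hr, beside 9.56% and 9.87% of all genes. At 28 d 6 were higher and 3 lower, beside 7.66% and 8.65% of all genes. The median difference was 0.02, and the called differences were those of *Bpifb1*, upward, and *Gp2*, downward. *Bpifb1*, a secreted bactericidal protein relative of the airways, had effects of -0.80 and 0.06 and a difference of 0.86 (adjusted p = 0.013). *Lypd2*, a GPI-anchored protein gene, had -1.27 and -0.47 (adjusted p = 0.0299). *Bpifa1*, which encodes the airway surface protein SPLUNC1, had -2.01 and -0.76, and its difference of 1.26 did not pass the test (adjusted p = 0.313). *Snhg11*, a noncoding host gene of small nucleolar RNAs, read 10.15, 9.93, 10.03 and 10.01 in air and 8.88, 8.78, 8.83 and 8.66 in GMA-SS at 4 hr. By 28 d the level was 9.91, 9.96, 9.99 and 9.98 in air and 9.70, 9.64, 9.70 and 9.89 in GMA-SS, and its difference of 1.02 (0.81 to 1.23) had an adjusted p of 4.48e-05. *Mat1a*, a methionine adenosyltransferase, was the only gene of this group called higher at 28 d, with effects of -0.31 and 0.27.

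The 19 genes whose effect grew were mostly higher in GMA-SS at 28 d. They include 14 higher and 5 lower genes. *Ear6*, a ribonuclease of the mouse eosinophil-associated family, read 5.37, 5.40, 5.62 and 5.33 in air and 7.11, 7.11, 7.29 and 7.35 in GMA-SS at 4 hr. The 28 d values were 5.88, 5.28, 5.43 and 5.44 in air and 8.62, 8.43, 8.68 and 8.66 in GMA-SS. No air array was above background, all 8 GMA-SS arrays were, and those of 28 d all lay above those of 4 hr. The fold was at least 3.32 at 4 hr and at least 8.31 at 28 d, and the fitted difference was 1.31 (0.93 to 1.68, adjusted p = 0.00123). *Rnase2a* and *Rnase2b* were not above background in any group except 28 d GMA-SS, where each was above it on 3 of 4 arrays, at least 1.8-fold and 2.58-fold higher than air. They passed the filter on dim genes only through that group, so that their calls are no independent support. *Rnase2b* no longer passed the filter on dim genes without GMA-SS replicate 2 of 28 d. *Ear2*, another member, was lower, with effects of -1.07 and -0.57. Of 12 listed markers of mast cells, basophils and eosinophils, only 3 were measured, *Cma1*, *Cpa3* and *Fcer1a*. These are genes of mast cells and basophils, so that no defining marker of eosinophils was read. Their median effect was -0.41 at 4 hr and 0.11 at 28 d.

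These ribonuclease genes lie on chromosome 14 and their upstream sequences are close relatives, which is why they are shown together (RefSeq, GRCm38.p6; chr14:51853518-51853767 plus strand, chr14:51256113-51256362 minus strand and chr14:51162010-51162259 plus strand). Aligned globally, the 250 bases before the start were identical at 88.2% of 228 aligned positions between *Rnase2a* and *Ear6*, at 92.4% of 224 between *Rnase2b* and *Ear6*, and at 91.3% of 231 between *Rnase2a* and *Rnase2b*. Binding of related transcripts to one probe was not tested.
Ear6: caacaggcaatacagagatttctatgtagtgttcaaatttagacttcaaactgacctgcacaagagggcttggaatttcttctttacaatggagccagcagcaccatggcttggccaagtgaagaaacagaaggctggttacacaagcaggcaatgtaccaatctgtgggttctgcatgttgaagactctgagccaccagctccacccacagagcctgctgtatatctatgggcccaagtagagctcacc
Rnase2a: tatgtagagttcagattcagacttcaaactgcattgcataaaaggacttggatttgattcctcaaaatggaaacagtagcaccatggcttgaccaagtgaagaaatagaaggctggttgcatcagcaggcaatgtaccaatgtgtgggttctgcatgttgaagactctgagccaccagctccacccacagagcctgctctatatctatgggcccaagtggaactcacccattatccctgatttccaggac
Rnase2b: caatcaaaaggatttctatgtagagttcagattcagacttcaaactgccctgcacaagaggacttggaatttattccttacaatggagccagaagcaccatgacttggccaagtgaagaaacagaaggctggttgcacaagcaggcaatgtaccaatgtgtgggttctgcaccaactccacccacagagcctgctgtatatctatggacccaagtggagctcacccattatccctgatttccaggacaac

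Genes known from lipid-laden macrophages, *Gpnmb* and *Spp1*, grew. *Gpnmb*, a lysosomal glycoprotein of phagocytes, read 9.07, 9.27, 9.41 and 9.07 in air and 10.28, 10.59, 10.11 and 10.17 in GMA-SS at 4 hr. On the 28 d arrays, air read 9.47, 9.22, 9.29 and 9.40 and GMA-SS 11.45, 11.60, 11.50 and 11.31. The groups did not overlap at either time, the folds were 2.12 and 4.34, and the difference was 1.04 (0.72 to 1.35, adjusted p = 0.00237). *Spp1*, the secreted phosphoprotein osteopontin, read 12.85, 12.96, 12.86 and 13.05 in air and 13.87, 13.74, 13.83 and 13.93 in GMA-SS at 4 hr. Air read 12.44, 12.91, 12.67 and 12.91 and GMA-SS 14.36, 14.46, 14.39 and 14.16 at 28 d, with folds of 1.88 and 3.05 (adjusted p of the difference = 0.0207), and the call was kept in 13 of 16 fits that left out an array. *Gpnmb* and *Spp1* were the only genes with a called difference among 17 measured genes of lipid-laden macrophages. Of the 17, 7 were higher and 1 lower at each time, and the median effects were 0.17 and 0.24. *Ch25h*, which makes 25-hydroxycholesterol, had effects of 1.23 and 1.90 without a called difference.

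*Wfdc17*, a secreted whey acidic protein gene of activated macrophages, read 8.40, 9.02, 8.64 and 8.55 in air and 9.97, 10.75, 10.12 and 10.34 in GMA-SS at 4 hr. At 28 d it read 8.11, 8.51, 8.14 and 8.19 in air and 11.09, 11.07, 11.33 and 10.76 in GMA-SS. The folds were 3.11 and 7.07 and the difference 1.18 (0.70 to 1.67, adjusted p = 0.025), called in 8 of 16 fits that left out an array. *Vnn3*, a pantetheinase, had effects of 0.27 and 1.25, *Nabp1*, a single-stranded DNA-binding protein, 0.05 and 0.81, and *Zranb3*, a helicase that restarts stalled replication forks, 0.57 and 1.49. The differences of these 3 genes had adjusted p of 0.0261, 0.0165 and 0.00742.

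*Itih4*, *Itih1* and *Proz*, best known from liver and plasma, grew. *Itih4*, an inter-alpha-trypsin inhibitor heavy chain of the acute phase, read 11.83, 11.88, 11.74 and 11.55 in air and 11.93, 12.32, 12.13 and 12.21 in GMA-SS at 4 hr. By 28 d the level was 11.61, 11.50, 11.43 and 11.53 in air and 12.96, 12.72, 12.90 and 12.84 in GMA-SS, and the groups did not overlap at either time. The folds were 1.32 and 2.53, and the difference was 0.94 (0.69 to 1.19, adjusted p = 0.000593). *Itih1*, a relative that lies beside it on chromosome 14 with 1 protein-coding gene between them, read 8.74, 8.68, 8.85 and 8.51 in air and 8.28, 8.58, 8.31 and 8.21 in GMA-SS at 4 hr. The 28 d values were 8.63, 8.33, 8.67 and 8.58 in air and 9.63, 9.55, 9.61 and 9.60 in GMA-SS. The groups overlapped at 4 hr and were apart at 28 d. It was lower at 4 hr (adjusted p = 0.0154) and higher at 28 d (adjusted p = 1.75e-06), with effects of -0.35 and 1.04 and an adjusted p of 4.48e-05 for the difference.

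*Proz*, the coagulation cofactor protein Z, read 5.80, 6.01, 5.90 and 5.78 in air and 5.81, 6.46, 5.78 and 6.27 in GMA-SS at 4 hr. On the 28 d arrays, air read 5.72, 5.56, 5.55 and 5.58 and GMA-SS 7.44, 7.39, 7.65 and 7.59. It was above background on no air array, on 2 GMA-SS arrays of 4 hr and on all 4 of 28 d, where it was at least 3.77-fold higher (adjusted p of the difference = 0.000331). *Proz* passed the filter on dim genes only through the 28 d GMA-SS group, so that its call is no independent support. *Itih4* was the only gene with a called difference among 18 measured acute phase genes. Of the 18, 11 were higher at 4 hr and 13 at 28 d, beside 9.56% and 7.66% of all genes. *Orm1*, the plasma carrier orosomucoid, had effects of 0.97 and 2.36 with an adjusted p of 0.0587 for the difference, and *Hpx*, the heme carrier hemopexin, 0.13 and 1.03 with 0.0687. Both were past the threshold at 28 d and neither difference passed it.

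*Npy*, the neuropeptide Y gene, read 5.56, 5.15, 5.48 and 5.24 in air and 5.36, 5.71, 5.27 and 5.21 in GMA-SS at 4 hr. Air read 5.30, 5.23, 5.32 and 5.33 and GMA-SS 7.35, 6.81, 7.43 and 6.47 at 28 d. It was above background on the 4 GMA-SS arrays of 28 d and on no other lung array, at least 3.03-fold higher there than air. It passed the filter on dim genes only through that group, so that its call is no independent support. *Noxa1*, an activator subunit of NADPH oxidase 1, read 6.45, 6.74, 6.79 and 6.85 in air and 6.23, 6.70, 5.90 and 5.70 in GMA-SS at 4 hr. At 28 d it read 6.86, 6.66, 6.49 and 6.25 in air and 7.79, 7.43, 7.60 and 7.17 in GMA-SS. The groups overlapped at 4 hr and were apart at 28 d. Like *Itih1*, it was lower at 4 hr (-0.57) and higher at 28 d (0.93), and the difference was 1.51 (0.93 to 2.08, adjusted p = 0.0165).

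The 5 genes that were lower at 28 d and grew were *Avpr1a*, *Tgfb2*, *Col6a2*, *Aqp5* and *Chmp1a*. *Avpr1a*, a vasopressin receptor gene, read 5.97, 6.34, 6.05 and 5.71 in air and 5.39, 5.35, 5.57 and 5.63 in GMA-SS at 4 hr, all at background. By 28 d the level was 8.28, 8.42, 8.13 and 8.44 in air and 6.54, 6.71, 6.90 and 6.81 in GMA-SS, all above it. The 28 d groups did not overlap, as in 8.79% of all genes in this direction. The effect at 28 d was -1.57, no fold can be given at 4 hr, and the air mean moved by 2.30 between the times. *Tgfb2*, a growth factor of the TGF-beta family, had effects of 0.19 and -0.34, and *Col6a2*, a chain of collagen VI, 0.18 and -0.30, with no call at 4 hr for either. *Aqp5*, the water channel of alveolar type I cells, was higher at 4 hr and lower at 28 d, at 0.21 and -0.22, as was *Chmp1a*, an ESCRT-III subunit, at 0.32 and -0.34. *Col6a2* (-0.49, adjusted p = 0.0613) and *Chmp1a* (-0.65, adjusted p = 0.087) were not called without GMA-SS replicate 2 at 28 d.

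**Figure D3:**
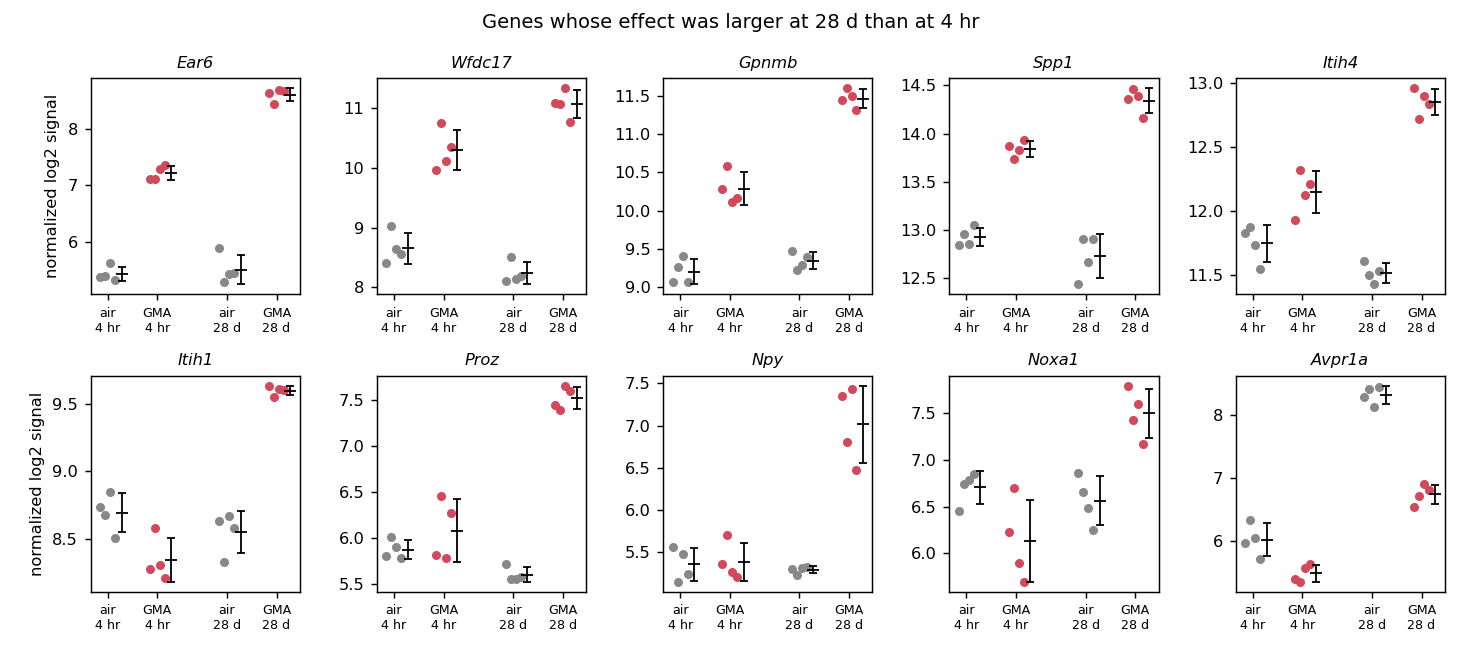
Each point is 1 array, grey for air and red for GMA-SS, with the normalized log2 signal on the y axis and the 4 groups on the x axis; the bar beside each group is its mean ± SD (n = 4). In 9 of the 10 genes the GMA-SS arrays of 28 d stand highest, and in *Avpr1a* the air arrays of 28 d do.

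No proliferation or cholesterol gene had a called difference. Of 33 measured cell cycle and DNA replication genes, 25 were higher at 4 hr and 12 at 28 d, beside 9.56% and 7.66% of all genes. Their median effects were 0.61 and 0.40, with a median difference of -0.22. *Stmn1*, which destabilizes microtubules, had effects of 0.34 and -0.07 (adjusted p of the difference = 0.159), and *E2f1*, a transcription factor of S phase entry, 0.40 and 0.02 (adjusted p = 0.314). The count at 28 d rested on single arrays. It was 23 without GMA-SS replicate 4 at 28 d, 7 without replicate 2, 3 without replicate 1 or replicate 3 and 5 or 6 without air replicate 1, 2 or 3 of that time, and the mean level of the list on replicate 4 was 8.11, inside the air range of 8.03 to 8.21. The median difference was -0.04 without replicate 4.

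Of 17 measured cholesterol synthesis genes, 11 were higher at 4 hr and 6 at 28 d, beside 9.56% and 7.66% of all genes, with medians of 0.49 and 0.20. The difference lay below 0 for 16 of the 17, and 7 had an unadjusted p under 0.05. *Cyp51*, the lanosterol demethylase, read 9.40, 9.54, 9.55 and 9.55 in air and 10.54, 10.39, 10.64 and 10.59 in GMA-SS at 4 hr. The 28 d values were 9.64, 9.52, 9.72 and 9.46 in air and 10.27, 9.93, 10.40 and 10.16 in GMA-SS, and its difference of -0.42 had an adjusted p of 0.277. *Fdps*, the farnesyl pyrophosphate synthase, had effects of 0.76 and 0.38, *Dhcr7*, the last enzyme before cholesterol, 0.44 and 0.04, and the squalene epoxidase gene *Sqle* 0.73 and 0.44. Among 26 measured collagen and matrix genes, 10 were higher at 4 hr (9.56% of all genes) and 3 at 28 d, close to the 7.66% of all genes, with medians of 0.20 and 0.08 and called differences for *Spp1* and *Col6a2* in opposite directions.

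Of the innate receptor and neutrophil chemokine genes only *Cxcl15* had a called difference. Of 24 measured pattern recognition and inflammasome genes outside the interferon sensors, 12 were higher at 4 hr and 15 at 28 d, beside 9.56% and 7.66% of all genes. The medians were 0.47 and 0.81, and the difference lay above 0 for 22. *Clec7a*, the beta-glucan receptor dectin-1, had effects of 0.51 and 0.94 (adjusted p of the difference = 0.39), and *Marco*, a scavenger receptor for particles, 0.07 and 0.94 (adjusted p = 0.407). Of the neutrophil chemokine list, *Cxcl2*, a CXCR2 ligand, was not above background on any air array. It was above it on 1 GMA-SS array of 4 hr and 4 of 28 d, where it was at least 3.73-fold higher, with a difference of 1.41 (0.34 to 2.48, adjusted p = 0.422). *Clca1*, a secreted protein of mucous cells, had a difference of 2.41 that did not pass the test (1.27 to 3.55, adjusted p = 0.0563). It read 7.11, 5.96, 5.75 and 5.76 in air and 8.87, 8.44, 9.0 and 7.75 in GMA-SS at 28 d, all GMA-SS arrays above all air arrays, with effects of -0.04 at 4 hr and 2.37 at 28 d.

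**Figure D4:**
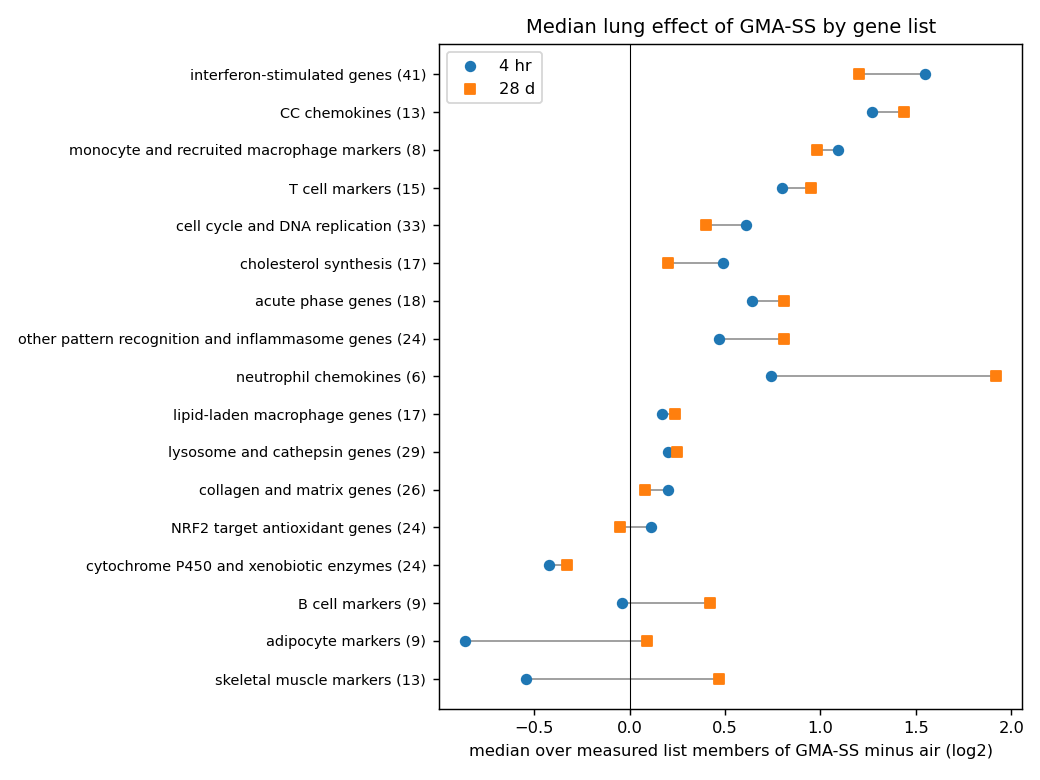
The x axis gives the median over the measured members of each list of the GMA-SS minus air effect (log2), as a blue circle at 4 hr and an orange square at 28 d; the number of measured members stands beside each name. The interferon-stimulated genes lie at 1.55 and 1.20, the neutrophil chemokines at 0.74 and 1.92, the adipocyte markers at -0.86 and 0.09 and the skeletal muscle markers at -0.54 and 0.47, the latter -0.21 without GMA-SS replicate 2 of 28 d.

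Markers of tissue beside the lung moved with time and exposure, and their part in the differences was not tested. The 9 measured adipocyte markers had a mean level of 10.08 to 11.00 in air and 9.33 to 10.31 in GMA-SS at 4 hr, and of 9.47 to 9.70 and 8.96 to 10.07 at 28 d. Of them 6 were lower at 4 hr and 1 at 28 d, beside 9.87% and 8.65% of all genes, with median effects of -0.86 and 0.09. *Adipoq*, the adipocyte hormone adiponectin, had effects of -0.94 and 0.25 (adjusted p of the difference = 0.393), and *Lep*, the adipocyte hormone leptin, -1.10 and 0.21 (adjusted p = 0.275). The 13 skeletal muscle markers had a median difference of 1.0 with all arrays and, over the 12 measured without it, 0.10 without GMA-SS replicate 2 at 28 d, and none had a called difference either way. The largest difference of any gene tested, 3.33, was that of the skeletal actin gene *Acta1* and was not called (adjusted p = 0.834). Without that array 55 genes had a called difference, and 47 of the 64 were among them. For 16 of the other 17 the difference without it lay within 0.05 of that with all arrays, with adjusted p of 0.0518 to 0.106. Calls close to the threshold were lost more widely. Of the 16 fits that left out an array, none kept the call of *Chmp1a*, 1 kept that of *Rnase2a* and of *Rnase2b*, 2 those of *Gapdh*, *Ppp1r3b* and *Drd2*, and 3 those of *Srxn1* and *Hdc*. The calls of *Gsta1*, *Itga7*, *Col6a2* and *Lamb3* were kept in 4, that of *Lypd2* in 6, those of *Aqp5*, *Vnn3* and *Cblif* in 7, that of *Mat1a* in 8 and that of *Sfn* in 9. By contrast *Gp2*, *Areg*, *Mt1*, *Trf*, *Cyp4a12b*, *Snhg11*, *Ear6*, *Gpnmb*, *Itih4*, *Itih1*, *Proz*, *Npy* and *Noxa1* kept theirs in all 16. Of these, *Proz* and *Npy* passed the filter on dim genes only through the 28 d GMA-SS group, so that their calls remain no independent support.

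**Figure D5:**
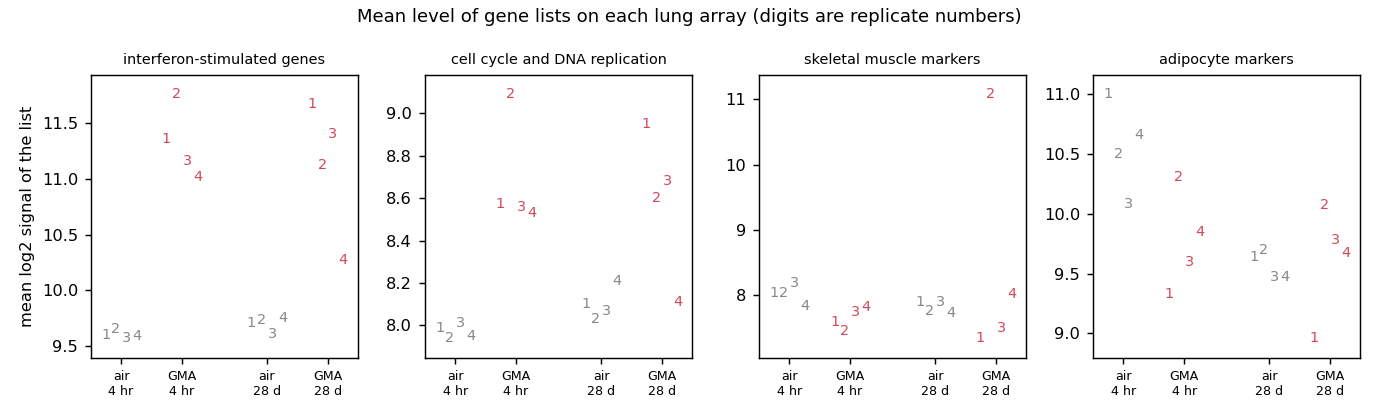
Each digit is the replicate number of 1 array at the mean normalized log2 signal of a list (y axis, a scale of its own in each panel), grey for air and red for GMA-SS, by group on the x axis. GMA-SS replicate 4 of 28 d reads 10.27 for the interferon-stimulated genes and 8.11 for the cell cycle genes, under the other 3 arrays of its group, and GMA-SS replicate 2 of 28 d reads 11.08 for the skeletal muscle markers.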

How the data were processed

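Lung RNA of 16 mice, 4 per group, was hybridized to MouseRef-8 v2.0 beadchips. The authors exported with BeadStudio the mean bead intensity of each entry, not normalized, and deposited it with a detection p-value against the negative controls of the array. The authors also deposited normalized log2 values, made with lumi and limma, which served as an alternative here. How arrays were normalized between each other is not given in the sources used here.

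The mean and SD of the negative controls were inferred from the detection p-values of single-probe entries. Signals were corrected by normexp with an offset of 16, put on the log2 scale and quantile normalized over the 16 arrays. Entries were kept where 3 or more arrays had a detection p under 0.05, and of several entries per symbol the brightest was used. Symbols came from Entrez identifiers (16590 entries), RefSeq accessions (883) or the file (665). Group means were fitted with limma 3.58.1 in R 4.3.3, with trended variance and 12 residual degrees of freedom, and p-values were Benjamini-Hochberg adjusted over all 11133 genes. The fit was tested on simulated data. A signal counts as above background at a detection p under 0.05. Folds written "at least" set the mean of the brighter group against the dimmer group with each array at the higher of its own value and the lowest signal above background. The number of arrays limits the precision.

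Named were the 10 highest and lowest called differences, the 10 highest and lowest held genes, the 5 highest and lowest effects among genes that shrank or grew, and up to 4 genes of lowest p in each list. All but the last took only genes above background on at least 1 array of each group and with a symbol that is no clone or LOC name. *Avpr1a*, *Cblif*, *Cyp4a12a*, *Cyp4a12b*, *Drd2*, *Ear6*, *Fbxo15*, *Gapdh*, *Hmox1*, *Il18r1*, *Krt8*, *Lamb3*, *Mat1a*, *Nabp1*, *Npy*, *Ppp1r3b*, *Proz*, *Reg1*, *Rnase2b* and *Slc39a11* fall outside this rule and were named after their values were seen. The comparison and the gene lists were chosen with earlier results of these data known. Alternatives were other background corrections, scaling, filters, weights, a replicate block and each array left out. Blood arrays were not used here. Of the aorta files only the annotation columns were used, to name entries.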

Additional observations from a re-analysis of the deposited data

Results flagged for a closer look

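Among the 84 genes described or called, single arrays stood far from the other 3 of their group in 20 of 336 groups, by the gap of the highest or lowest array to its neighbor over the range of the group (Dixon test at 95%). Chance alone flags about 1 in 20 groups. Values are normalized log2 signals. In 4 hr air these were *1810007E14Rik* at 8.59 in replicate 3 (highest), *Cyp4a12a* at 6.84 in replicate 2 (highest), *Lypd2* at 12.74 in replicate 4 (lowest), *Rasgrf2* at 7.39 in replicate 2 (lowest) and *Rnase2a* at 5.0 in replicate 4 (lowest). In 4 hr GMA-SS these were *Ankrd37* at 9.79 in replicate 2 (lowest), *Col6a2* at 11.22 in replicate 4 (highest), *Cxcl15* at 15.47 in replicate 4 (lowest), *Dgkg* at 8.33 in replicate 1 (highest), *Lhfpl2* at 10.57 in replicate 2 (highest) and *Ppp1r3b* at 6.16 in replicate 2 (lowest). In 28 d air these were *Cblif* at 6.20 in replicate 4 (highest), *Csf2rb2* at 7.26 in replicate 1 (lowest), *Cyp4a12b* at 9.05 in replicate 1 (highest) and *Zmynd15* at 6.93 in replicate 3 (lowest). In 28 d GMA-SS these were *Aqp5* at 13.65 in replicate 3 (lowest), *Gsta1* at 6.25 in replicate 4 (highest), *LOC626152* at 11.01 in replicate 1 (lowest), *Slc16a6* at 7.68 in replicate 4 (lowest) and *Zranb3* at 9.93 in replicate 4 (lowest). Of the 20, 5 lay in 28 d GMA-SS.

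The effect of GMA-SS differed between the times, by the test of the difference in limma at an adjusted p under 0.05, for 64 genes, given here with the log2 difference, 28 d minus 4 hr. Higher at 4 hr and smaller in effect at 28 d were *1810007E14Rik* (-1.51), *Gsta1* (-1.48), *Gp2* (-1.48), *Areg* (-1.41), *Ppp1r3b* (-1.30), *Sfn* (-1.23), *Reg1* (-1.18), *Fbxo15* (-1.17), *Mt1* (-1.17), *Ankrd37* (-1.07), *Cblif* (-1.01), *S100a14* (-0.89), *Trf* (-0.87), *Itga7* (-0.78), *LOC626152* (-0.75), *Drd2* (-0.75), *LOC100044221* (-0.73), *Ahnak2* (-0.65), *Cxcl15* (-0.62), *Ckmt1* (-0.55), *Diaph3* (-0.54), *Srxn1* (-0.53), *Krt8* (-0.52), *Il18r1* (-0.52), *Glrx* (-0.50), *Lamb3* (-0.46), *Slc39a11* (-0.43), *Hdc* (-0.43) and *Gapdh* (-0.30). Lower at 4 hr and smaller in effect at 28 d were *Rmdn2* (0.39), *Chrnb1* (0.39), *Arxes2* (0.48), *Epop* (0.52), *Plcb2* (0.55), *Mat1a* (0.58), *Sncg* (0.65), *Mag* (0.72), *Rnf208* (0.73), *Lypd2* (0.79), *Bpifb1* (0.86), *Snhg11* (1.02), *Cyp4a12a* (1.16), *Sult1d1* (1.29), *Cyp2a5* (1.47) and *Cyp4a12b* (2.61). Larger in effect and higher at 28 d were *Spp1* (0.70), *Nabp1* (0.77), *Rnase2a* (0.87), *Zranb3* (0.92), *Itih4* (0.94), *Vnn3* (0.98), *Gpnmb* (1.04), *Wfdc17* (1.18), *Rnase2b* (1.28), *Ear6* (1.31), *Itih1* (1.39), *Noxa1* (1.51), *Npy* (1.70) and *Proz* (1.71). Larger in effect and lower at 28 d were *Avpr1a* (-1.04), *Chmp1a* (-0.66), *Tgfb2* (-0.52), *Col6a2* (-0.49) and *Aqp5* (-0.42).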

How the results depend on the processing

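Of the 64 called differences, 25 were called without each array in turn and under every alternative with an adjusted p in which they were tested. Among the 25, *Reg1*, *Fbxo15* and *Cyp4a12a* were tested in only 10 of the 11 such alternatives. *Reg1*, *Fbxo15*, *Npy* and *Proz* passed the filter on dim genes only through the GMA-SS group where they were high, so that their calls are no independent support. None of the 64 differences changed sign under these alternatives. With arrays scaled to the 75th percentile 20 genes were lower. Array weights gave 58 higher and 60 lower genes, 71 that shrank, 47 that grew and 1061 held. An unadjusted p under 0.05 with a fold of at least 1.3 gave 233 higher and 221 lower genes, 218 that shrank, 119 that grew and 319 held. With 1 array left out, 16 to 35 genes were higher and 14 to 43 lower, 21 to 53 shrank, 10 to 27 grew, 789 to 1363 persisted and 419 to 892 were held. Without the detection filter 24 genes were higher and 24 lower. The normalized values of the authors called 68 genes, 54 of them among the 64. The causes were not tested. With the replicate number as a block, 26 genes were higher and 31 lower, 37 shrank, 20 grew, 1198 persisted and 781 were held, and 53 of its 57 calls were among the 64. Deviations from the group means correlated at -0.197 to 0.469 between arrays with the same number. The mean was 0.0467, against -0.0161 between arrays with different numbers. Whether samples with the same number share more than the number was not tested. Genes near the background, where folds are bounds, and genes near the top of the scale limit what the intensities resolve.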

Other observations

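The 9 measured B cell markers had median effects of -0.04 at 4 hr and 0.42 at 28 d, with a difference above 0 for all 9 and none called. The 11 measured alveolar macrophage markers had medians of -0.03 and 0.06, with 10 differences above 0 and none called. Of the 15 measured cardiac muscle markers, 6 were lower at 4 hr and 3 at 28 d, beside 9.87% and 8.65% of all genes, and of the 9 smooth muscle markers 4 were lower at each time. The 14 measured core clock genes had medians of -0.22 and -0.22. In air the 9 measured clock output genes had a mean level of 9.75 to 9.98 at 4 hr and of 8.75 to 9.02 at 28 d. The cause of this shift and its part in the differences were not tested. Among 18 measured complement genes, 9 were higher and 2 lower at 4 hr, and 12 were higher and none lower at 28 d, with no called difference. Of all genes 9.56% were higher and 9.87% lower at 4 hr, and 7.66% higher and 8.65% lower at 28 d.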
